A study of Mus musculus with 20 samples.

Results

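The transcription factor NRF2 (gene Nfe2l2), its inhibitor Keap1 and 8 of the best known NRF2 target genes, Nqo1, Gclc, Gclm, Hmox1, Txnrd1, Srxn1, Gsr and Slc7a11, were followed in the liver of mice given benzo(a)pyrene (BaP). The members were every probe whose transcript accession maps to 1 of these 10 gene symbols, which gave 17 of 41174 probes and 10 of the 16535 genes measured. Liver RNA came from 20 male Muta™Mouse animals (transgenic strain 40.6) aged 25 weeks, with 5 mice in each of 4 groups. Controls (replicates 1 to 5) received the olive oil vehicle by oral gavage, and the exposed mice received BaP at 25 mg/kg/day (replicates 6 to 10), 50 mg/kg/day (replicates 11 to 15) or 75 mg/kg/day (replicates 16 to 20). Dosing lasted 28 days and the livers were taken 3 days after the last dose, so that every value describes a liver 3 days after dosing had ended. All 4 groups carried the same transgene, a bacterial lacZ reporter used to score mutations.

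Each liver was hybridized once, with Cy5, beside a universal mouse reference RNA from 11 cell lines labelled with Cy3. Every level given here is therefore a log2 ratio of liver over reference for 1 probe, and levels of different probes were not compared. There was no dye swap, so that the sign of a level against the reference is open to dye bias, whereas differences between dose groups are not affected by a dye effect that all arrays share. The labels name liver in one field and lungs in another. All 6 hepatocyte markers measured (Alb, Apoa1, Ttr, Tat, Ahsg and Fgb) were well above background on 20 of 20 arrays, as against 0 of 20 for the lung markers Sftpc and Sftpb, 1 for Ager, 5 for Scgb1a1 and 16 for Sftpa1. Between 51.9% and 67.5% of the spots of an array were well above background and 0 spots were saturated. The arrays lay on 6 slides. Slides 1 to 3 held 1 array of each group, slides 4 and 5 held only the 25 and 75 mg/kg/day groups, and slide 6 held 2 controls and 2 arrays of the 50 mg/kg/day group. Within a slide, the 25 mg/kg/day samples were always at position 2 and the 75 mg/kg/day samples at position 4, so that dose and place on the slide largely coincided. The exceptions were on slide 6, where control 2 was at position 2 and position 4 held replicate 13, which received 50 mg/kg/day, and the part of position in the results was not tested.

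NRF2 is a basic leucine zipper factor that KEAP1, an adaptor of the CUL3 ubiquitin ligase, marks for degradation in unstressed cells. Electrophiles and oxidants modify cysteines of KEAP1, NRF2 then accumulates, pairs with a small MAF protein and binds antioxidant response elements near genes of glutathione synthesis, thioredoxin recycling and quinone reduction. BaP is a polycyclic aromatic hydrocarbon that binds the aryl hydrocarbon receptor and is oxidized by CYP1 enzymes to epoxides, diols and quinones, and NQO1 and glutathione enzymes handle such products in the liver. NRF2 is controlled largely at the protein level, which arrays do not measure.

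Promoter stretches that match the core of the antioxidant response element, the motif NRF2 is known to bind, are shown first, and binding was not measured here. The core, TGACNNNGC, was searched on both strands of RefSeq promoter windows running from 250 bases before to 50 bases after a transcription start (build GRCm38.p6). A window was matched for 7 of the 10 genes, all but Gclc, Gsr and Hmox1, with 9 windows in all because Txnrd1 has 3. The core was found in 4 of these 9 windows, which belong to Nfe2l2, Gclm, Txnrd1 and Srxn1, and in 12.4% of the 32851 windows of all genes. The Srxn1 match lies after the transcription start. The other 3 matches lie upstream, 231 bases from the start for Nfe2l2, 125 for Gclm and 83 for Txnrd1, and are printed 5′ to 3′ with the core in capitals, on the strand on which the core reads in this direction. The Nfe2l2 stretch is chr2:75704884-75704913 on the minus strand, that of Gclm chr3:122245413-122245442 on the minus strand and that of Txnrd1 chr10:82859104-82859133 on the minus strand.
Nfe2l2: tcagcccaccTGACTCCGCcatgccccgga
Gclm: ctcgtgagagtTGACGGTGCgcccgggagc
Txnrd1: ccgtgtcagaaTGACAAAGCaaaaatccag
The 3 cores share the 6 fixed letters and differ in the spacer. The windows of Nqo1, Slc7a11 and Keap1 did not hold these letters, and sequence outside the windows was not searched for any gene.

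Of the 17 probes, 14 passed the filter on low signal, and these measured 9 of the 10 genes. The exception was Slc7a11, the cystine carrier that supplies glutathione synthesis with cysteine. None of its 3 probes was well above background in the liver channel on any of the 20 arrays, in controls or at any dose, and no fold change was computed for it. The other 9 genes were well above background on all 20 arrays. Where a gene had several probes, the one with the highest mean intensity stands for it and the others are given beside it.

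Nqo1 rose at the highest dose, and no other member passed the test at any dose. NQO1 reduces quinones by a 2-electron step that bypasses reactive semiquinones. Its single probe gave log2 ratios of -1.92, -2.02, -1.53, -1.76 and -1.87 in controls 1 to 5. At 25 mg/kg/day the 5 mice gave -1.58, -1.93, -1.92, -1.56 and -1.60. At 50 mg/kg/day the values were -1.87, -1.27, -1.12, -1.69 and -1.42. In the 75 mg/kg/day group they were -1.02, -1.10, -1.04, -1.25 and -1.29. All 5 mice of the highest dose lay above every control, 3 of 5 did so at 50 mg/kg/day and 0 of 5 at 25 mg/kg/day. The 50 mg/kg/day group had the widest spread, with replicates 11 and 14 inside the control range and replicates 12 and 13 among the values of the highest dose.

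The group means of Nqo1 were -1.82 ± 0.19 (SD, n = 5) in controls, -1.72 ± 0.19 (SD, n = 5) at 25, -1.47 ± 0.31 (SD, n = 5) at 50 and -1.14 ± 0.12 (SD, n = 5) at 75 mg/kg/day. Against controls the log2 fold change was 0.68 at 75 mg/kg/day (SE 0.13, limma adjusted p = 0.0386), a 1.60-fold rise with a 95% confidence interval of 1.32 to 1.94. A probe was called when its Benjamini-Hochberg adjusted p over all 27346 present probes was under 0.05 and its fold change over 1.5. At this dose 0.132% of all present probes were called higher and 0.00366% lower, and 0.936% had all 5 exposed arrays above all 5 controls. The log2 fold change was 0.34 at 50 mg/kg/day (95% confidence interval 0.07 to 0.62, limma adjusted p = 0.697) and 0.10 at 25 mg/kg/day (-0.18 to 0.38, limma adjusted p = 0.867). Neighbouring groups in this order overlapped in their values in each case. A straight line through all 4 doses rose by 0.68 over 75 mg/kg/day (SE 0.12, limma adjusted p = 0.0156), and 0.157% of all present probes were called for such a trend.

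The Nqo1 call at 75 mg/kg/day was close to the threshold. It was lost when any of controls 1, 2, 4 and 5, replicate 15 of the 50 mg/kg/day group or replicates 16, 17, 18 and 20 of the 75 mg/kg/day group was left out, with adjusted p up to 0.122, while the log2 fold change stayed between 0.63 and 0.75 over all 20 omissions. It was also lost with the deposited LOWESS ratios (0.59, adjusted p = 0.0739), with the liver channel alone (0.66, adjusted p = 0.0521) and when only controls and the 75 mg/kg/day group were fitted (0.68, adjusted p = 0.0877). The dose trend lost its call without control 2 or replicate 17 or 18 of the 75 mg/kg/day group, with adjusted p from 0.0550 to 0.0592.

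**Figure D1:**
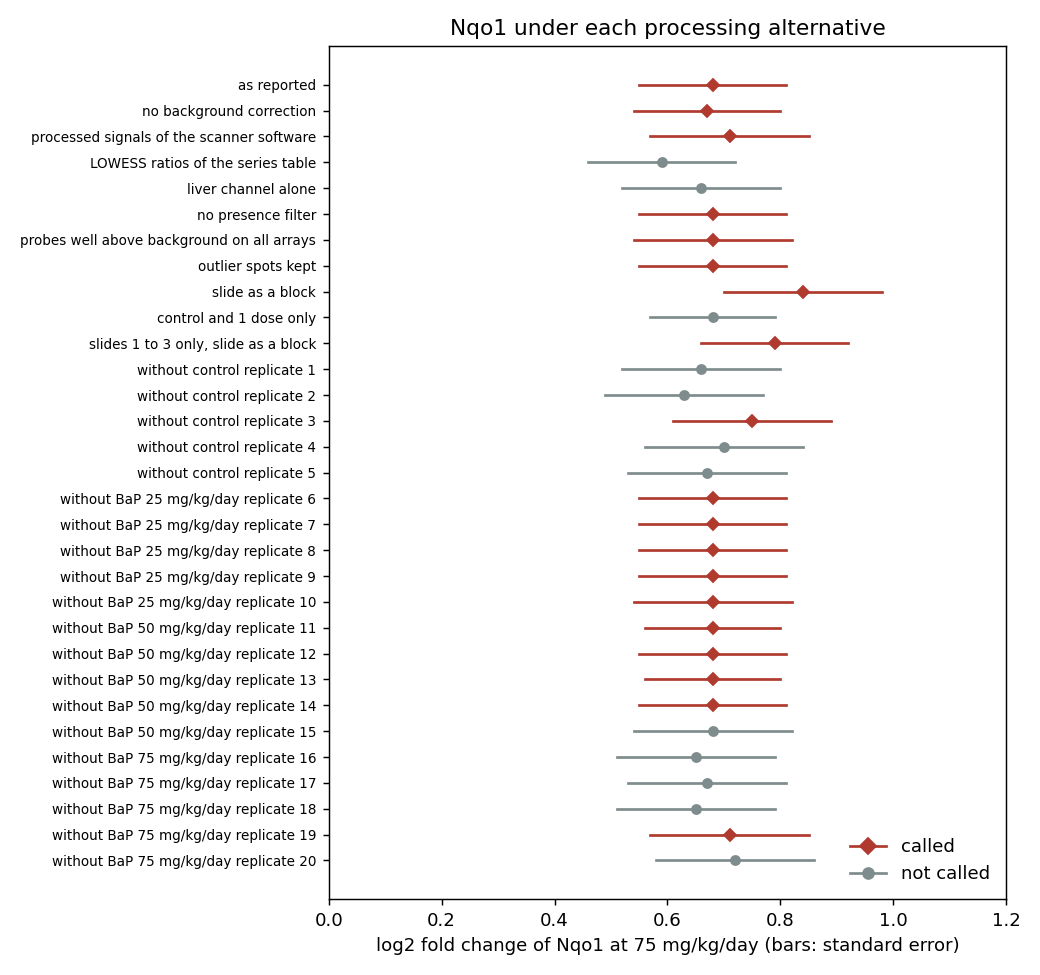
Log2 fold change of Nqo1 at 75 mg/kg/day against controls (horizontal axis, points with standard error) under each processing alternative and with each array left out (vertical axis). Values run from 0.59 to 0.84, and the grey points are those that did not pass the call rule.

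Slides accounted for 5.28% of the variance of Nqo1 over the 20 arrays and dose groups for 65.7%, each taken without the other. Doses were unevenly spread over the slides, so that these shares do not separate slide from dose. Within slides 1, 2 and 3 the array at 75 mg/kg/day exceeded the control of the same slide by 0.66, 0.83 and 0.89. With slide as a block the log2 fold change was 0.84 (limma adjusted p = 0.0211), against 0.68 without it. At 50 mg/kg/day the differences within slides 1, 2, 3 and 6 were 0.33, 0.18, 0.05 and 0.58, and at 25 mg/kg/day those within slides 1, 2 and 3 were 0.19, -0.06 and 0.32. The highest dose thus stood above the control on each slide that held both, and the lower doses gave smaller differences on these slides.

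**Figure D2:**
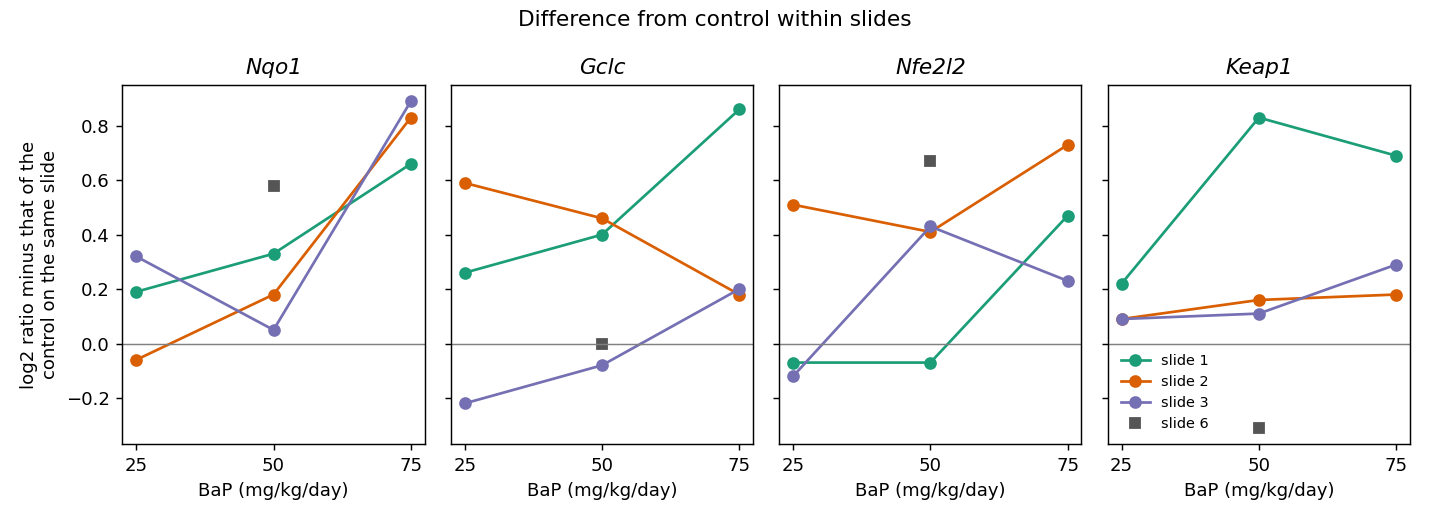
Log2 ratio of each exposed array minus that of the control on the same slide (vertical axis) by BaP dose (horizontal axis) for Nqo1, Gclc, Nfe2l2 and Keap1. Lines join slides 1 to 3, and the square for slide 6 is the difference of the means of 2 arrays each. All 4 genes were above 0 at 75 mg/kg/day on slides 1 to 3, with Nqo1 between 0.66 and 0.89. The other measured members, which are not drawn, were mixed at this dose. Hmox1 (-0.43 to 0.02), Txnrd1 (-0.23 to 0.19) and Gsr (-0.67 to 0.48) were above 0 on 1 of 3 slides. Gclm (-0.17 to 0.54) and Srxn1 (-0.25 to 0.26) were above 0 on 2 of 3.

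Glutathione synthesis begins with glutamate-cysteine ligase, whose catalytic subunit is Gclc and whose modifier subunit is Gclm. For Gclc, controls 1 to 5 had log2 ratios of 3.74, 3.61, 3.76, 2.99 and 3.17. The mice at 25 mg/kg/day had 3.82, 3.91, 3.75, 3.25 and 3.52. Those at 50 mg/kg/day had 3.66, 3.75, 3.61, 3.63 and 3.39, and those at 75 mg/kg/day 3.94, 3.85, 3.35, 4.27 and 4.30. At the highest dose 4 of 5 mice lay above every control, and replicate 18 lay among the controls. The log2 fold change was 0.49 (SE 0.18, 95% confidence interval 0.12 to 0.86, unadjusted p = 0.0128 and limma adjusted p = 0.325), which did not pass. The 2 highest Gclc values, 4.27 and 4.30, came from slides 5 and 4, which held no control, and within slides 1 to 3 the differences were 0.86, 0.18 and 0.20.

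Gclm varied more between arrays of a dose group than most present probes. Its log2 ratios in controls 1 to 5 were 2.10, 2.92, 3.06, 1.96 and 1.63, and the 75 mg/kg/day mice gave 1.93, 2.50, 2.12, 2.45 and 3.00, all within the control range. The ranges were 2.04 to 2.97 at 25 mg/kg/day and 2.33 to 2.75 at 50 mg/kg/day. Its log2 fold change was 0.07 at the highest dose, with a 95% confidence interval of -0.46 to 0.59. The within-group SD of Gclm was 0.43, against a median of 0.22 over all present probes. Slides accounted for 52.3% of its variance and dose groups for 3.91%, and the controls with 2.92 and 3.06 both lay on slide 6. Within slides 1 to 3 its differences from the control at 75 mg/kg/day were 0.54, 0.49 and -0.17.

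Heme oxygenase 1 (Hmox1) breaks down heme and is among the most inducible NRF2 targets. Its log2 ratios were -1.76, -1.62, -1.30, -1.64 and -1.46 in controls and -1.74, -1.80, -1.89, -1.38 and -1.48 at 75 mg/kg/day. The groups overlapped, and 2 of the 5 mice of the highest dose lay below every control. Its log2 fold changes were 0.07, 0.01 and -0.10 in order of dose, and the 95% confidence interval at 75 mg/kg/day ran from -0.45 to 0.24. Slides accounted for 62.8% of its variance, the largest share among the 9 genes, and in each exposed group the highest value was on slide 4, 5 or 6.

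The thioredoxin and glutathione reductases and sulfiredoxin return oxidized thiols to their reduced state. Txnrd1, the cytosolic thioredoxin reductase, had ranges of -0.37 to 0.21 in controls and -0.13 to 0.24 at 75 mg/kg/day, and its log2 fold changes were 0.10, -0.01 and 0.09 at the 3 doses. The 95% confidence interval at 75 mg/kg/day, -0.16 to 0.35, lay below the estimate for Nqo1.

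Srxn1, sulfiredoxin, which repairs overoxidized peroxiredoxins, had 3 present probes. The brightest ranged from -0.47 to 0.01 in controls and from -0.23 to 0.01 at 75 mg/kg/day, with a log2 fold change of 0.16 (95% confidence interval -0.07 to 0.38). The other 2 probes gave -0.05 each at this dose, so that the probes disagreed in sign. At 25 mg/kg/day all 3 probes were below controls on average, with log2 fold changes of -0.13, -0.33 and -0.22. The probe with -0.33 had its 5 exposed arrays, from -0.22 to 0.02, below all 5 controls, from 0.05 to 0.40, as 0.655% of all present probes did, and it did not pass the test (limma adjusted p = 0.636).

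Gsr, glutathione reductase, was also measured by 3 probes, which did not move together. The brightest ranged from 1.00 to 2.01 in controls and from 1.15 to 1.80 at 75 mg/kg/day. At the 3 doses it gave log2 fold changes of 0.21, -0.22 and 0.08, and the third probe gave 0.37, -0.17 and 0.19. The second probe had the opposite sign at each dose, with -0.17, 0.10 and -0.15. No Gsr probe passed the test, and the lowest adjusted p was 0.613 (limma).

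**Figure D3:**
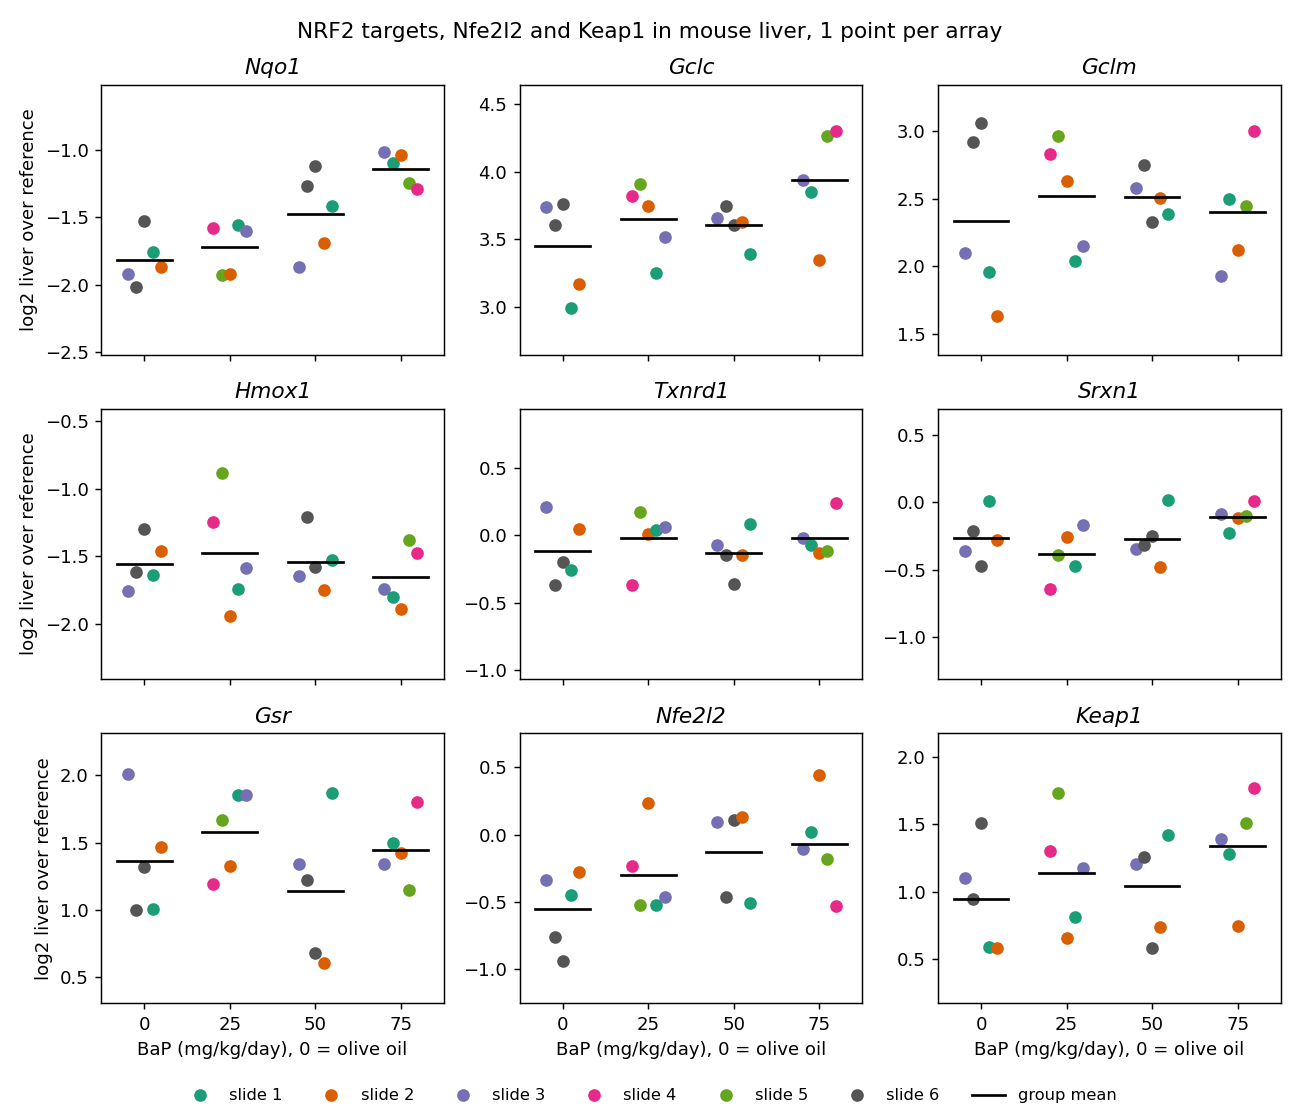
Log2 ratio of liver over reference (vertical axis, 1 point per array, coloured by slide) by BaP dose (horizontal axis, 0 being olive oil) for the brightest probe of the 9 genes that could be measured, with bars at the group means. Each panel spans the same 2 log2 units. Nqo1 shows 5 points at 75 mg/kg/day above all controls, and for the other 8 genes exposed and control points overlap at every dose.

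Nfe2l2, which encodes NRF2 itself, gave higher means with each dose on both of its probes, without passing the test. The brighter probe read -0.34, -0.76, -0.94, -0.45 and -0.28 in controls 1 to 5. It read -0.23, -0.52, 0.23, -0.52 and -0.46 at 25 mg/kg/day. It read 0.09, -0.46, 0.11, 0.13 and -0.51 at 50 mg/kg/day and -0.11, 0.02, 0.44, -0.18 and -0.53 at 75 mg/kg/day. Thus 2, 3 and 4 of 5 mice lay above every control at the rising doses, and the others lay within the control range.

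The log2 fold changes of this Nfe2l2 probe were 0.25, 0.42 and 0.48 (SE 0.19 each), with a 95% confidence interval of 0.09 to 0.88 and limma adjusted p = 0.348 at 75 mg/kg/day. The second probe gave 0.37, 0.43 and 0.51 (SE 0.17 each), with an interval of 0.16 to 0.86 and limma adjusted p = 0.274 at this dose. The slope of the brighter probe over 75 mg/kg/day was 0.49 (SE 0.17, unadjusted p = 0.0106 and limma adjusted p = 0.411). Both probes were read on the same 20 arrays and are not independent of each other.

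Keap1, whose product holds NRF2 low, had log2 ratios of 1.10, 0.95, 1.51, 0.59 and 0.58 in controls and 1.39, 1.28, 0.75, 1.51 and 1.77 at 75 mg/kg/day. Only replicate 20 of that dose lay above every control. The log2 fold change was 0.40 (SE 0.23, 95% confidence interval -0.08 to 0.87, limma adjusted p = 0.525), and at 25 and 50 mg/kg/day it was 0.19 and 0.10. Slides accounted for 59.8% of the variance of Keap1. Its differences from the control within slides 1 to 3 were 0.69, 0.18 and 0.29 at the highest dose.

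**Figure D4:**
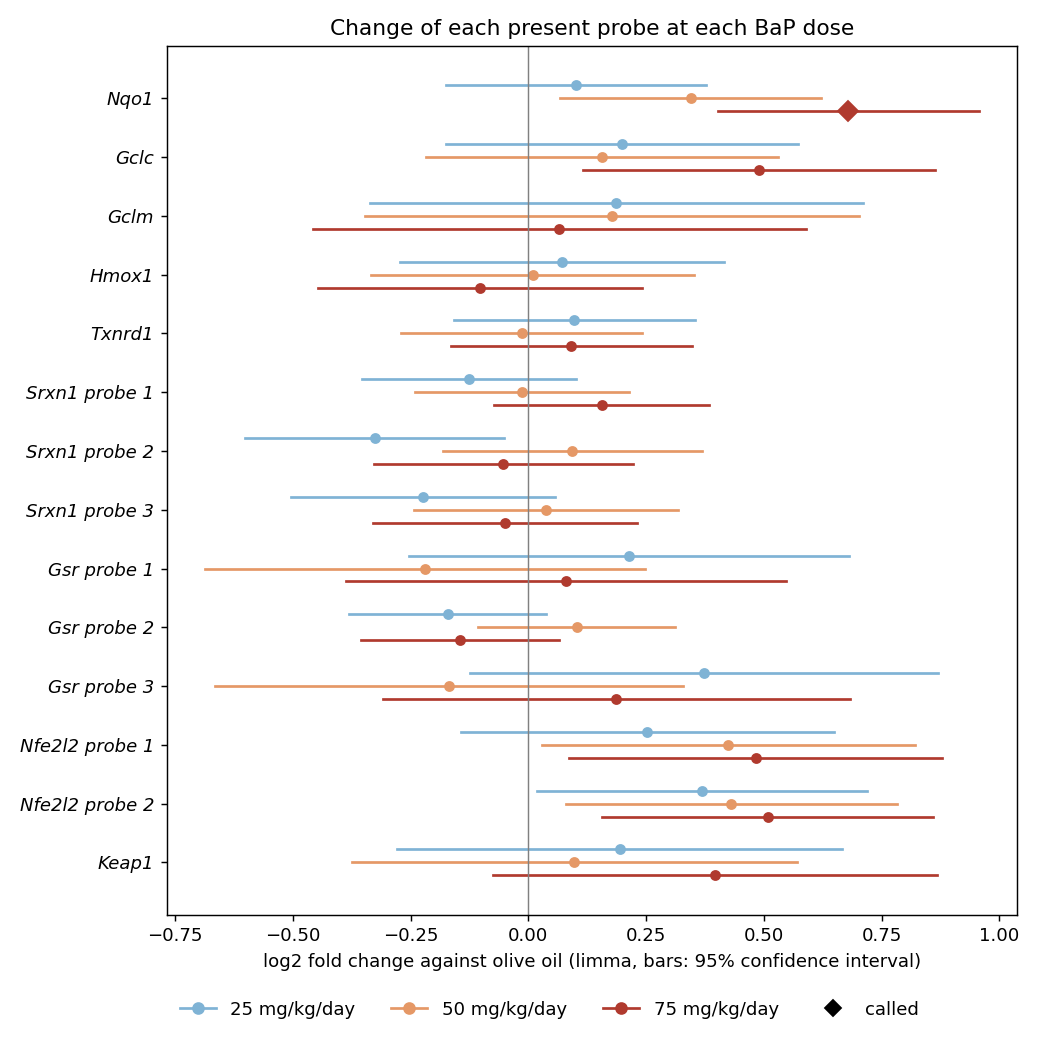
Log2 fold change against controls (horizontal axis, points with 95% confidence intervals from limma) of the 14 present probes (vertical axis) at each dose of BaP. The diamond marks Nqo1 at 75 mg/kg/day, 0.68, the only point that passed the call rule. Intervals of Gclc and of both Nfe2l2 probes at 75 mg/kg/day lie above 0 without adjustment.

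Counted together, 1 of the 9 genes was called higher at 75 mg/kg/day by limma, against 25 of the 12986 genes with a present probe. At 25 or 50 mg/kg/day 0 of the 9 were called, as were 0 of all present probes. At an unadjusted p under 0.05, 3 of 9 were higher at 75 mg/kg/day (Nqo1, Gclc and Nfe2l2), 2 of 9 at 50 mg/kg/day (Nqo1 and Nfe2l2) and 0 of 9 at 25 mg/kg/day, against 7.58%, 4.4% and 4.04% of the 12986 genes with a present probe. The median log2 fold change of the 9 genes was 0.187, 0.097 and 0.156 at the 3 doses, and that of all 12986 genes was -0.010, -0.005 and -0.001. At 25, 50 and 75 mg/kg/day 8, 6 and 8 of the 9 were above 0, against 47.4%, 48.7% and 49.9% of all genes.

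Hepatocyte markers moved the same way as these medians. All 6 were above 0 at each dose, with a median of 0.411 at 75 mg/kg/day, where 0 were called by limma and 3 had an unadjusted p under 0.05. Of all 12986 genes, 49.9% were above 0 at this dose, 7.58% were higher at that p and 25 were called higher. The mean level of the hepatocyte markers per array ranged from 4.07 to 5.43 in controls and from 4.89 to 5.29 at 75 mg/kg/day, and control 4 had the lowest value. For Kupffer cell markers 1 of 7 and for endothelial markers 1 of 7 were called higher at 75 mg/kg/day, against 25 of all 12986 genes. The medians were 0.079 and 0.304 in this order. In whole liver, fewer cells of a type and less RNA per cell cannot be told apart, and the part of these markers in the values above was not tested.

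Further NRF2 targets were taken from a list of 27 enzymes and carriers of drug conjugation, NADPH supply, iron storage and export, of which 24 had a present probe. None was called at any dose by limma, and at 75 mg/kg/day 25 of all 12986 genes were called higher and 1 lower. At 75 mg/kg/day 21 of 24 were above 0, against 49.9% of all genes, with a list median of 0.245. At an unadjusted p under 0.05, 8 of 24 were higher, against 7.58% of all genes. The corresponding counts were 22 and 4 of 24 at 25 mg/kg/day and 18 and 3 of 24 at 50 mg/kg/day. At these doses 47.4% and 48.7% of all genes were above 0, and 4.04% and 4.4% were higher at that p. The hepatocyte markers, with a larger median at 75 mg/kg/day, stand beside this list as beside the members.

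Glutathione S-transferase mu 3 (Gstm3), which joins glutathione to electrophiles, had the largest change of this list. Its controls gave 4.13, 3.47, 3.77, 3.38 and 3.24, and the 75 mg/kg/day mice gave 4.28, 4.18, 4.26, 4.71 and 5.06. All 5 were above every control, as were those of 0.936% of all present probes. The log2 fold change was 0.90 (SE 0.18, limma adjusted p = 0.0511), which just missed the threshold. With no background correction it passed (adjusted p = 0.0397), as it did with outlier spots kept (0.0435), without control 1 (0.0152) and without replicate 9 of the 25 mg/kg/day group (0.0451). It did not pass under the other settings. With slide as a block it was 0.66 (adjusted p = 0.101), on slides 1 to 3 only 0.65 (0.112), with the liver channel alone 0.53 (0.216), and with only controls and 1 dose fitted 0.90 (0.266). Transcripts of the mu class are close in sequence, and signal of a paralog on this probe was not tested.

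The next largest changes at 75 mg/kg/day were those of Gstm1, another mu class transferase (0.57, SE 0.20), the carbonyl reductase Cbr3 (0.54, SE 0.16), the carboxylesterase Ces1g (0.53, SE 0.15) and the microsomal epoxide hydrolase Ephx1 (0.45, SE 0.21). None passed, with limma adjusted p from 0.197 to 0.441. Gstm1 was 0.22 with slide as a block, 0.03 on slides 1 to 3 only and 0.21 with the liver channel alone. The second Gstm1 probe gave 0.30, 0.55 and 0.59 (SE 0.16 each) at the 3 doses (limma adjusted p = 0.171 at the last), and the second probes of Ces1g and Ephx1 gave 0.41 (SE 0.13) and 0.38 (SE 0.20) at 75 mg/kg/day.

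Among 12 partners and regulators of NRF2, 0 were called at any dose by limma, and at 75 mg/kg/day 25 of all 12986 genes were called higher. At 75 mg/kg/day 8 of 12 were above 0, against 49.9% of all genes, with a list median of 0.127. At an unadjusted p under 0.05, 2 of the 12 were higher, against 7.58% of all genes. Bach1, a repressor that competes for antioxidant response elements, had a log2 fold change of 0.98 with a wide error (SE 0.40, limma adjusted p = 0.372), and its controls ranged from 0.32 to 2.23 and the exposed mice from 1.37 to 3.14. Mafk, a small MAF partner, was 0.40 (SE 0.14, limma adjusted p = 0.295). At 50 mg/kg/day Mafk was 0.44 with all 5 exposed arrays above all controls, as 0.516% of all present probes were. The margin was smaller than the rounding, with replicate 12 of this dose and control 1 both at -0.09. Sqstm1, the p62 adaptor that can bind KEAP1, was the lowest at -0.28 (SE 0.15). Maff was 0.27 (SE 0.32), and the ubiquitin ligase Syvn1 was 0.23 (SE 0.17), its second probe giving -0.01 (SE 0.12).

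The aryl hydrocarbon receptor battery was set beside these genes because Nqo1 belongs to both. Of its 5 other genes, 0 were called at any dose by limma, and at 75 mg/kg/day 25 of all 12986 genes were called higher. Going by the brightest probe of each gene, 1, Tiparp, was higher at an unadjusted p under 0.05 at each dose. Of all genes, 4.04%, 4.4% and 7.58% were higher at that p in order of dose. Tiparp, a receptor-induced ADP-ribosyltransferase, was above every control in 5 of 5 mice at 25 and at 75 mg/kg/day and in 4 of 5 at 50 mg/kg/day. All exposed arrays above all controls occurred for 0.559% of all present probes at 25 mg/kg/day and for 0.936% at 75 mg/kg/day. Its log2 fold changes were 0.48, 0.39 and 0.54 (SE 0.13 each), with limma adjusted p = 0.131 at 75 mg/kg/day, and with slide as a block the last was 0.64 and passed (adjusted p = 0.0370).

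Cyp1a1, the main BaP-oxidizing enzyme and a sensitive mark of the receptor, was well above background on 11 of 20 arrays. Replicate 16 of the 75 mg/kg/day group read 3.64, whereas the other 4 mice of that dose read 0.07, 0.07, 0.21 and 0.49 and controls ranged from -0.24 to 0.56. The fitted log2 fold change was 0.72 (SE 0.45, limma adjusted p = 0.566), and without this mouse it was 0.04 (SE 0.14). The same mouse had the highest Nqo1 value of the series, -1.02, beside -1.04 in replicate 18, whose Cyp1a1 reading of 0.07 was not well above background. Cyp1a2, the main liver form, was 0.31 (SE 0.16), Cyp1b1 was -0.12 (SE 0.15) and the receptor repressor Ahrr 0.09 (SE 0.12). Cyp1b1 was well above background on 16 of 20 arrays and Ahrr on 9, among them 1 of 5 controls. Under alternatives other than omissions the Ahrr change ran from 0.02 to 1 and that of Cyp1b1 from -0.18 to 0.27. The second Cyp1a2 probe gave log2 fold changes of 0.32, 0.31 and 0.45 (SE 0.12 each) at the 3 doses, with limma unadjusted p = 0.0113, 0.0143 and 0.000862, and did not pass after adjustment (0.146 at 75 mg/kg/day).

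**Figure D5:**
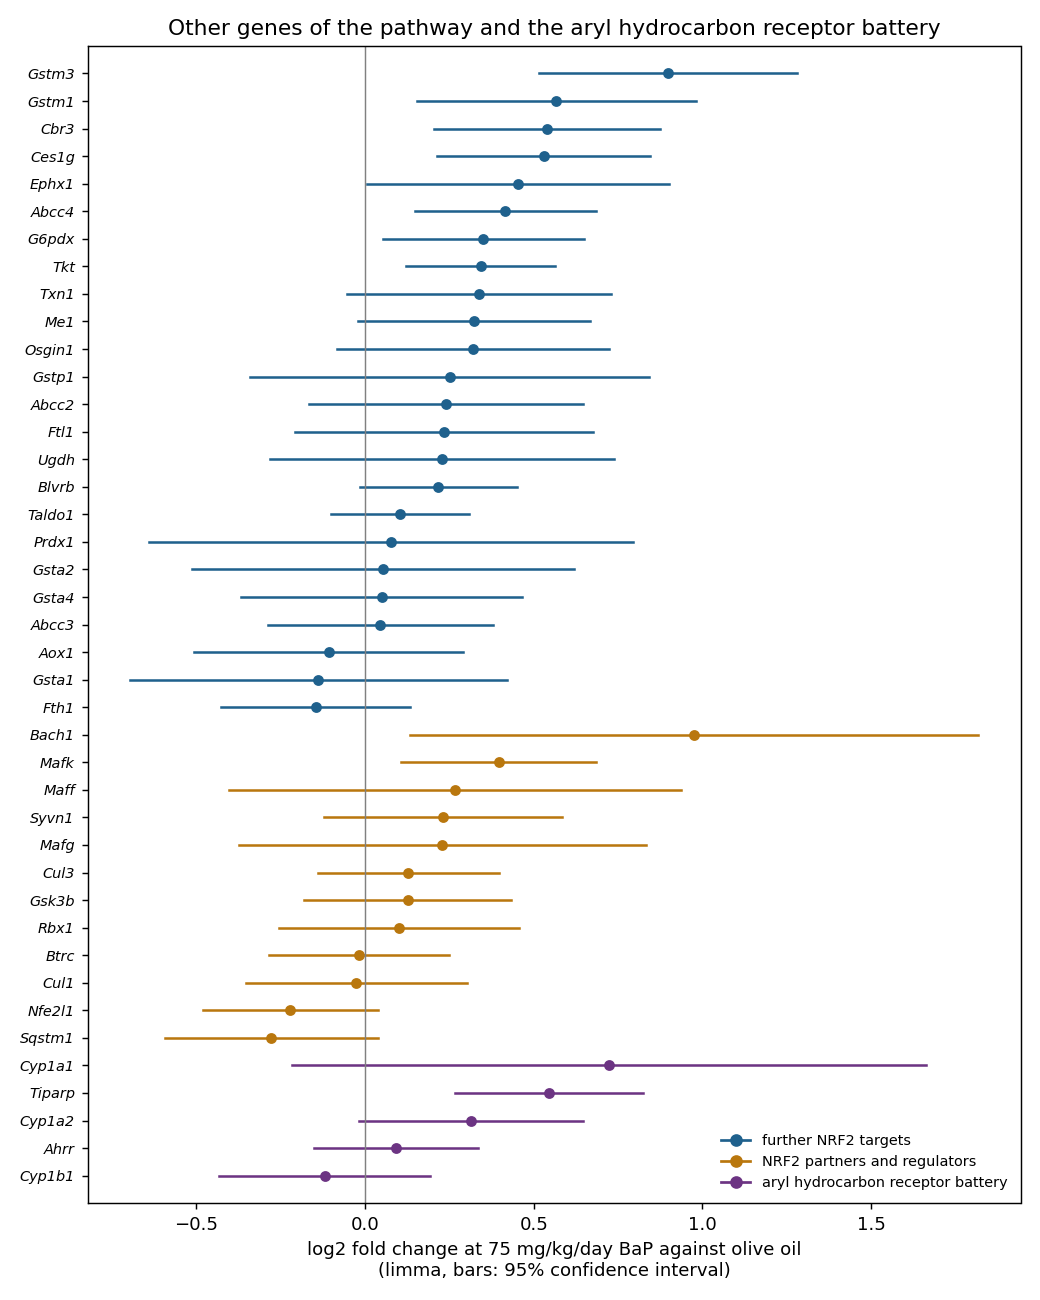
Log2 fold change at 75 mg/kg/day BaP against controls (horizontal axis, points with 95% confidence intervals from limma) of 24 further NRF2 targets, 12 partners and regulators of NRF2 and 5 genes of the aryl hydrocarbon receptor battery (vertical axis). Gstm3 at 0.90 and Bach1 at 0.98 lie farthest to the right, and none passed the call rule.

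Genes with the most similar profile to each member were sought among 12808 genes over the 20 arrays, after slide means were removed, as a description without a test, since the arrays share doses and positions. Nqo1 was nearest to Ly6a, the stem cell antigen Sca-1 (Pearson r = 0.91). The nearest gene was Dcxr for Nfe2l2 (r = 0.89), Rprd1b for Keap1 (r = 0.94), Rmnd5a for Gsr (r = 0.94) and Arhgap35 for Txnrd1 (r = 0.89). For Gclc it was Elf4 (r = 0.83), for Gclm Psmb5 (r = 0.83), for Srxn1 Syce2 (r = 0.83) and for Hmox1 Rfc2 (r = 0.84). With slide means kept, r with these genes was 0.13 for Nfe2l2, 0.36 for Hmox1, 0.44 for Gclc and 0.47 for Srxn1. It was 0.70 for Gclm, 0.79 for Txnrd1, 0.83 for Nqo1 and for Gsr and 0.85 for Keap1. No member was the nearest gene of another.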

How the data were processed

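Liver RNA of 20 mice was hybridized against a universal reference on two-color Agilent arrays. Median intensities of spots and local background were used as deposited by the authors, as Feature Extraction (version 10.1.1.1 per the file headers) wrote them and with no normalization. Its processed intensities, also deposited, are background subtracted and dye normalized. The log2 ratios deposited by the authors were normalized by LOWESS.

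Background was corrected by normexp (offset 50), loess was applied array by array, outlier spots were left out, and log2 ratios of replicate spots were averaged. The filter on low signal followed the study's rule: a probe counted as present if its liver signal passed a limit in 4 or more of the 5 arrays of any group. The limit was the mean plus 3 SDs of 153 negative control spots, after trimming 5% at each end. Probes were named through RefSeq transcript accessions. All 20 arrays entered 1 limma model of dose group, and a second model took dose as a number, with p-values adjusted by the Benjamini-Hochberg method over 27346 present probes. R 4.3.3 with limma 3.58.1 and the data.table package (version 1.17.8) was used, with Python 3.11.15 and matplotlib 3.10.9 for figures, and the fit was tested on simulated data. MAANOVA, the study's program, was not used here. The study left out 1 unnamed sample, and all 20 are kept here. For the lowest dose the series description gives 24 mg/kg, and the sample labels' 25 mg/kg was used.

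Members and gene lists were chosen with earlier results of these data known. Besides all members, the text names the aryl hydrocarbon receptor battery in full and, of the further targets and of the partners, called genes and the 5 with the largest absolute change at 75 mg/kg/day. Alternatives were the background correction, the normalization, the liver channel alone, the presence filter, outlier spots, slide as a block, the groups fitted and leaving out each array. The alternative with slides 1 to 3 only was chosen after seeing the data. Besides hepatocytes, markers were listed for Kupffer cells, endothelium, stellate cells and fibroblasts, bile ducts, neutrophils, lung epithelium, T cells and B cells. The number of arrays limits the precision.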

Additional observations from a re-analysis of the deposited data

How the results depend on the processing

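The count of members called at 75 mg/kg/day, 1 (Nqo1), fell to 0 with the deposited LOWESS ratios, with the liver channel alone and with only controls and 1 dose fitted. It ranged from 0 to 1 when each array was left out, being 0 in 9 of 20 omissions. The count called for a dose trend, 1 (Nqo1), fell to 0 with slides 1 to 3 only, where the slope was 0.72 over 75 mg/kg/day (limma adjusted p = 0.0935), and ranged from 0 to 1 over the omissions. At 25 and 50 mg/kg/day the count was 0 under every alternative run. The cause of these losses was not tested, except that 12 of 20 arrays entered the fit of slides 1 to 3. Over the 9 genes, 347 of 351 values under alternatives other than omissions and 708 of 720 under omissions kept their call or stayed uncalled. Those that stayed uncalled moved by less than the within-group SD of the gene. The remaining 4 and 12 were Nqo1 values that lost the call and kept their direction. No called value changed sign, and 20 of the 351 and 24 of the 720 uncalled values did. The count over all present probes at 75 mg/kg/day, 37, was 5 with only controls and 1 dose fitted, 58 with slide as a block, 62 with processed signals and 81 with slides 1 to 3 only. Over omissions it ranged from 25 to 72. No paired analysis was possible because the replicate numbers 1 to 20 are not shared between groups, which concerns pairing by number only: with slide as a block Nqo1 was 0.84 at 75 mg/kg/day (limma adjusted p = 0.0211). Slc7a11 signal was not well above background, so that nothing can be said of its change.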

Other observations

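Of the marker lists not described above, 0 genes were called at any dose by limma. At 75 mg/kg/day the median log2 fold change was 0.191 for 6 stellate cell and fibroblast markers, -0.167 for 5 bile duct markers, 0.022 for 3 B cell markers, -0.184 for 4 T cell markers, 0.869 for 2 neutrophil markers and 0.050 for 3 lung epithelium markers. At an unadjusted p under 0.05, 2 stellate cell and fibroblast, 1 bile duct, 1 T cell and 2 neutrophil markers passed at this dose and 0 of the B cell and lung epithelium markers. The bile duct and T cell markers that passed were lower and the others higher. Of all 12986 genes, 1624 passed in either direction, and at this dose 25 were called higher and 1 lower.

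Among pairs of members, Txnrd1 and Gsr had the most similar profiles over the 20 arrays (Pearson r = 0.81 after slide means were removed), followed by Gclm and Keap1 (0.57) and Nqo1 and Nfe2l2 (0.55, or 0.30 with slide means kept). The arrays share doses and slide positions, so that these are descriptions without a test.

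In groups of 5 arrays, 36 group and gene pairs of the members were screened for a sample far from the others and 0 were found.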
